A study of Mus musculus with 12 samples.

Results

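The oxidative phosphorylation genes described here are the subunits of the 5 complexes of the inner mitochondrial membrane, taken from both genomes that encode them. They were chosen by symbol from a gene count table: nuclear symbols that begin with Nduf, Sdh, Uqcr, Cox or Atp5 in the pattern of a subunit, together with the protein genes of mitochondrial DNA, with assembly factors and symbols marked as pseudogenes left out. The rule found 95 of the 46095 genes in the table, 82 nuclear and 13 mitochondrial. The nuclear genes divide into 37 of complex I, 4 of complex II, 8 of complex III, 16 of complex IV and 17 of complex V, and the mitochondrial genes into 7 of complex I, 1 of complex III, 3 of complex IV and 2 of complex V. The pattern misses 6 subunits with other symbols, which are given further on, and it takes in Ndufa4, listed by its symbol under complex I although it is also placed in complex IV, and Atp5s and Atp5sl, which RefSeq now lists as distal membrane arm assembly genes.

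The samples were liver tumours, hepatocellular carcinoma (HCC), from mice given the carcinogen diethylnitrosamine (DEN), and RNA sequencing compared 7 libraries from mice labelled Pck1-null (KO below) with 5 from wild-type mice (WT). The title of KO replicate 7 has another prefix than those of the other KO libraries, and its genotype label placed it in that group. Among the other KO titles, those of replicates 4, 5 and 6, the KO libraries of highest total count, have the prefix in lower case. Pck1 encodes cytosolic phosphoenolpyruvate carboxykinase, the enzyme that commits carbon to gluconeogenesis. Mice of both groups carried the DEN-induced tumours, so no tissue without tumour enters any comparison. The labels give no strain, age, sex, dose or time of DEN, do not say which allele or driver removed Pck1, and do not say whether each library came from a separate animal, and p-values therefore reflect only how far these libraries spread, which may be technical.

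Complex I takes electrons from NADH, complex II takes them from succinate, complex III passes them from ubiquinol to cytochrome c, complex IV hands them to oxygen, and complex V, the ATP synthase, uses the proton gradient that complexes I, III and IV build. Complexes I, III, IV and V mix subunits of both genomes, whereas complex II is wholly nuclear. Hepatocytes are rich in mitochondria, and the transcription factors NRF1, GABP of the ETS family and YY1 are known for binding promoters of many nuclear subunit genes.

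Total counts ran from 17462102 to 46747125 per library and fell into 2 classes, 7 shallower libraries (KO replicates 1, 2, 3 and 7 and WT replicates 1, 3 and 4) and 5 deeper ones (KO replicates 4, 5 and 6 and WT replicates 2 and 5), with none between 23663506 and 43071365. Pck1 was at 111, 219 and 1167 CPM (counts scaled by library size; lowest, median and highest) in the KO libraries and at 1696, 5598, 5599, 1063 and 5822 CPM in WT replicates 1 to 5. KO replicate 3 therefore lay above WT replicate 4, and the fitted log2 fold change was -3.28 ± 0.67 (SE) with an edgeR adjusted p of 0.170. The 10 hepatocyte markers summed to between 59412 and 195012 CPM in every library. Transcript of Xist, made from the inactive X chromosome, exceeded 10 CPM in 5 of 7 KO and 1 of 5 WT libraries, so sex and genotype are partly confounded. The 10 neutrophil markers, of which 9 passed the filter on low counts, summed to 22.2 to 50.5 CPM in the WT libraries and in 4 KO libraries, and to 250, 405 and 1649 CPM in KO replicates 4, 6 and 3.

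Levels were compared between genes per kilobase of transcript. Among the nuclear members that passed the filter, the median over 77 genes was 110.5 CPM per kilobase. The catalytic beta subunit of the ATP synthase, Atp5b, was the most abundant nuclear member at 719.7 CPM per kilobase, followed by Uqcrq of complex III at 549 and the membrane ring subunit Atp5g3 at 547. Complex I had the lowest median of the 5 complexes, 82.5 CPM per kilobase over 36 genes, against 148 for complex II, 194 for complex III, 143 for complex IV and 188 for complex V. COX1, the catalytic subunit of complex IV on mitochondrial DNA, stood above every nuclear member at 8209 CPM per kilobase.

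No subunit gene passed the test between KO and WT. Of the 95 genes, 90 had enough counts to test (77 nuclear, 13 mitochondrial), and edgeR's quasi-likelihood test called 0 of them lower and 0 higher at an adjusted p under 0.05, where 0.0% of the 14666 genes tested were called in either direction. The fitted differences nevertheless leaned one way: 86 of 90 were below 0, against 46.3% of all genes tested, and the median was -0.49 on the log2 scale, against 0.03 over all genes. At an unadjusted p under 0.05, 31 of the 90 were lower in KO libraries and 0 were higher, beside 7.44% and 7.25% of all genes tested. In tumour pieces such as these, fewer cells of a type and less RNA per cell cannot be told apart.

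The count of 31 depended on single libraries. It was 59 without KO replicate 6 (10.7% of all genes), 58 without WT replicate 1 (8.6%), 22 without KO replicate 7 (5.81%), 19 without KO replicate 4 (5.62%), 12 without WT replicate 5 (5.13%) and 9 without WT replicate 2 (5.08%). It was 11 with scaling by the total count alone (3.78% of all genes) and 67 by limma-voom with sample weights (16.8%). No member had all 7 KO libraries below all 5 WT libraries, a pattern met by 0.58% of the genes tested. Ndufb3, Ndufb4, Cox5b and Atp5k came closest, with 6 KO libraries below every WT library. The share of all genes with 6 such KO libraries was not taken, so this count has no background to be read against. With the same counts DESeq2 called 4 members lower (Ndufb3, Ndufa13, Cox5b and ND6; 1.65% of all genes), limma-voom called 56 of 90 lower with sample weights (8.18% of all genes) and 0 without them (0.0273% of all genes), and edgeR called 1, Ndufb3, without KO replicate 6 (0.353% of all genes).

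The order of the libraries was much the same in every nuclear complex. For all nuclear members the mean level was 5.51, 5.90 and 6.55 log2 CPM (lowest, median and highest) in the KO libraries and 5.85, 6.87, 6.24, 6.20 and 6.77 log2 CPM in WT replicates 1 to 5. WT replicates 2 and 5 and KO replicate 6 were highest, in that order, and KO replicates 4 and 5 lowest. The groups overlapped between these ends, since KO replicate 6 lay above WT replicates 1, 3 and 4 and WT replicate 1 lay below 5 of the 7 KO libraries. Of the 90 tested members, 78 in KO replicate 5 and 72 in KO replicate 4 were below every WT library, where 26.9% and 21.1% of all genes tested were, and 6 were in KO replicate 6, where 15.1% of all genes were. WT replicate 1 was the lowest WT library for 73 of them (24.4% of all genes) and WT replicate 2 the highest library of all for 69 (7.9% of all genes). Of the KO libraries with raised neutrophil markers, replicate 6 was thus the highest for subunits, replicate 4 among the lowest and replicate 3 between them. Without these 3 libraries 87 of 90 members were below 0 (49.1% of all genes), with a median of -0.60. Without KO replicate 6 alone 88 of 90 were below 0 (46.9% of all genes), with a median of -0.61. The fit without the 3 libraries therefore does not isolate neutrophil content.

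Markers of other cell types also varied across these libraries. The 10 Kupffer cell and macrophage markers summed to 3195 CPM in KO replicate 6, 1642 in WT replicate 2 and 1183 in WT replicate 5, against 736 and 510 CPM in KO replicates 4 and 5. The 8 endothelial markers summed to 639, 546 and 401 CPM in the first 3 of these libraries and to 254 and 160 CPM in the other two. The hepatocyte sum was 62057, 59412 and 133203 CPM in the first 3 and 96620 and 146037 CPM in the other two. Alb made up much of this sum, with 31860, 31612 and 95171 CPM in the first 3 and 67953 and 112979 CPM in KO replicates 4 and 5. Single hepatocyte markers differed from the sum. Tat was at 3566, 3784 and 3790 CPM in the first 3 and at 1373.8 and 661.2 CPM in KO replicates 4 and 5. Cps1 was also higher in the first 3, whereas Ttr, Hnf4a and Serpina1c overlapped. The 6 cholangiocyte markers summed to 452, 154 and 203 CPM in the first 3 and to 749 and 4313 CPM in KO replicates 4 and 5. Spp1 made up most of this sum, with 421, 123 and 156 CPM in the first 3 and 627 and 4254 CPM in KO replicates 4 and 5. The other markers were divided. Epcam and Sox9 were higher in KO replicates 4 and 5 than in the first 3. Krt19, Krt7 and Cldn4 were highest of these libraries in KO replicate 4 and lowest in KO replicate 5, where Krt19 was at 0.709 CPM. Among the deeper libraries Xist exceeded 10 CPM in KO replicates 5 and 6 alone, and in a fit with Xist class as a term 85 of 90 members were below 0, their median was -0.51, and 13 were lower at an unadjusted p under 0.05 (6.18% of all genes). The part of cell makeup or sex in the subunit differences was not tested.

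**Figure D1:**
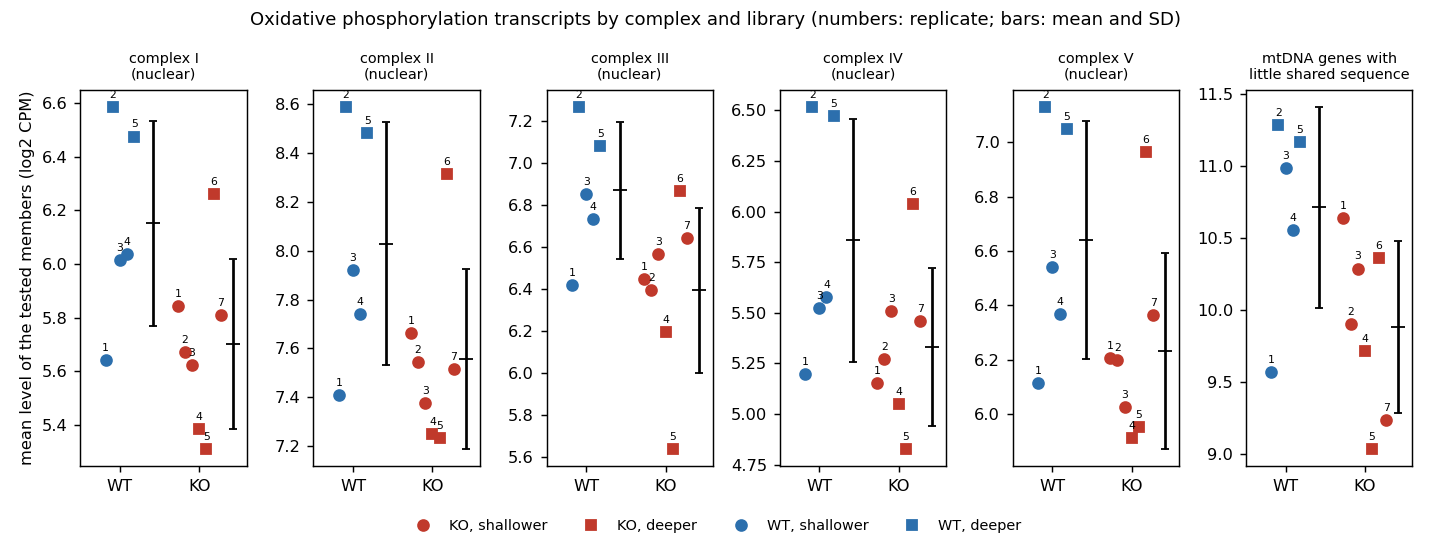
Mean level of the tested members (vertical axis, log2 CPM) of each nuclear complex and of the mitochondrial genes with under 10% shared sequence, 1 point per library, with the group mean and SD beside the points. Circles are shallower and squares deeper libraries, the number is the replicate, and in each nuclear panel WT replicates 2 and 5 and after them KO replicate 6 are highest and KO replicates 4 and 5 lowest.

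The 5 complexes had like medians of the fitted log2 fold change: -0.48 for complex I, -0.52 for complex II, -0.44 for complex III, -0.53 for complex IV and -0.48 for complex V. The mitochondrial genes had a median of -0.69. All tested genes of complexes I, II and III and of mitochondrial DNA were below 0, and the 4 exceptions were Cox6b2 and Cox7a2l of complex IV and Atp5g2 and Atp5l of complex V. The sign of each of these 4 turned under at least 1 of the alternatives tried.

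**Figure D2:**
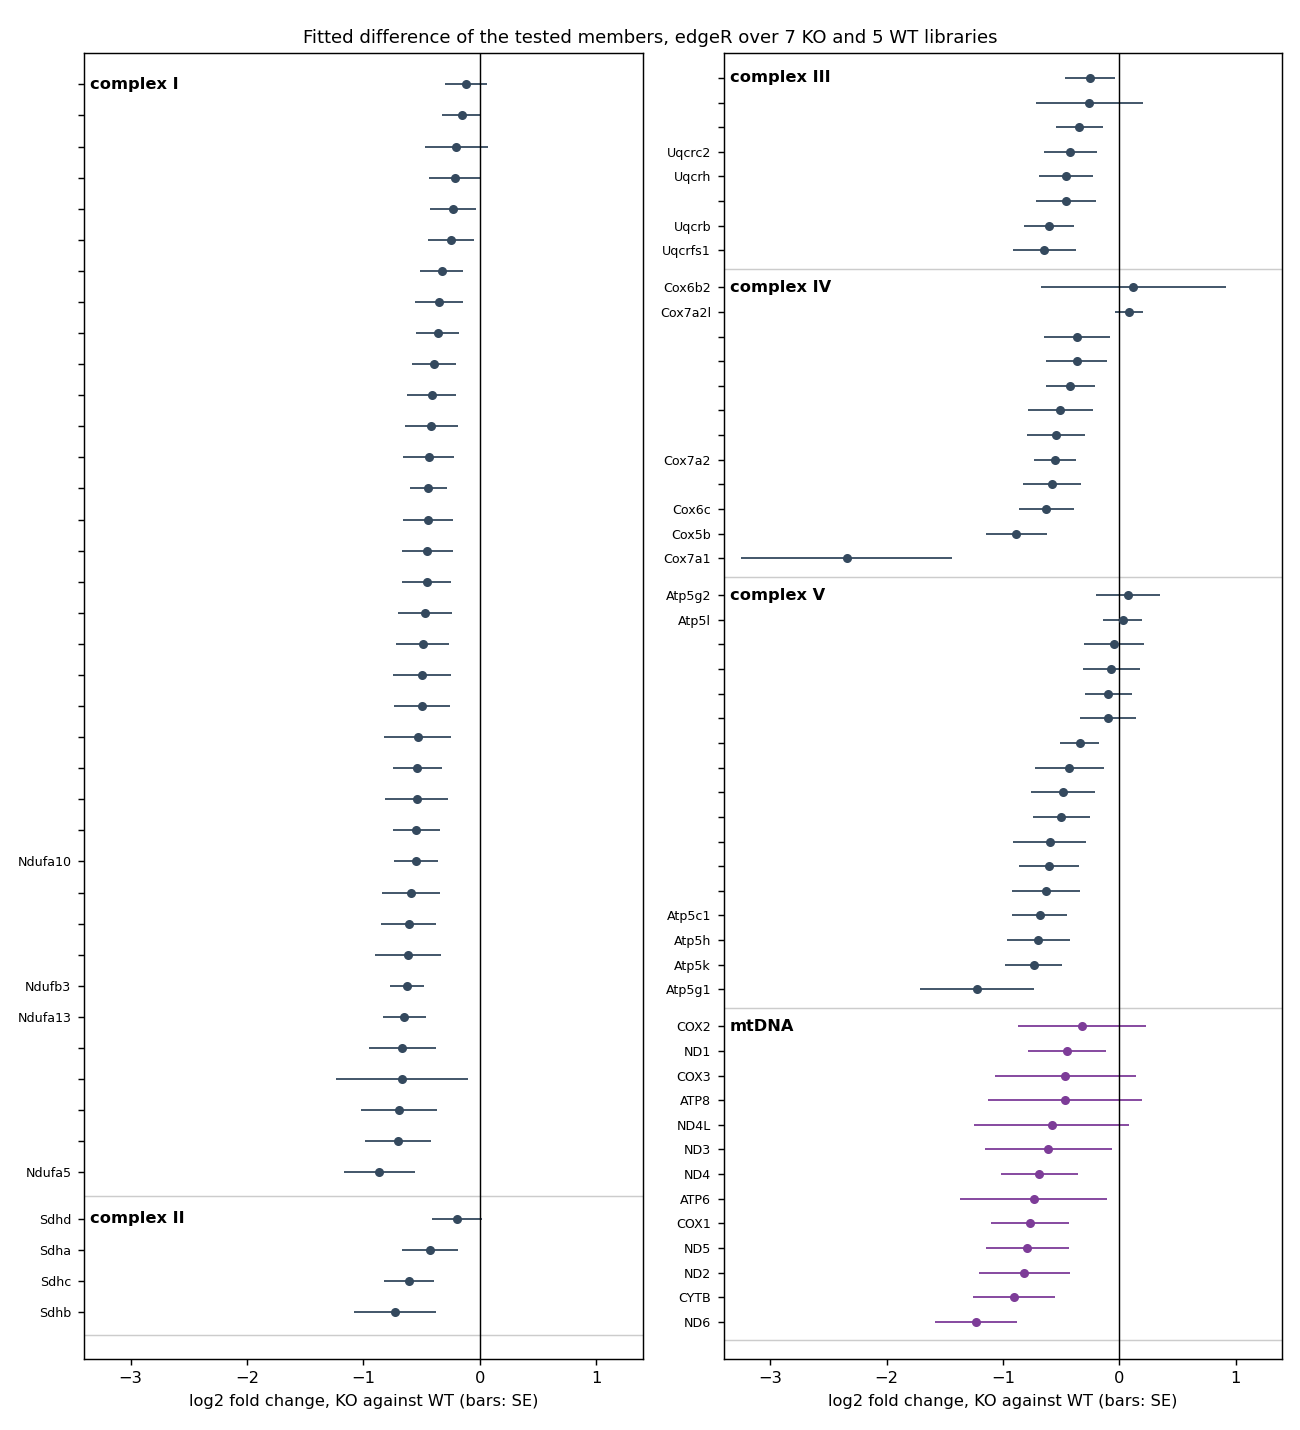
Fitted log2 fold change of each tested member, KO against WT (horizontal axis; points are edgeR estimates over 7 KO and 5 WT libraries and bars are SE), sorted within complex, with names beside the 4 nuclear members of smallest p in each complex, those above 0 and all mitochondrial genes. Of the 90 points 86 lie left of 0, Cox7a1 farthest at -2.34.

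Promoter sequence is shown for 3 nuclear subunits, 1 each of complexes I, II and V, that carry a letter match to a factor known for these genes. Promoters of 250 bases before to 50 bases after the start were taken from RefSeq (GRCm38.p6), where 69 of the 82 nuclear members matched with 75 promoters. The letters searched on both strands were GCGCA, any base and then GCGC for NRF1, CCGGAAG for the ETS family and AAGATGGCG for YY1, and no promoter of a member had overlapping matches of different motifs. Capitals mark the match, which on the reverse strand is read as its complement:

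Ndufa5, NRF1 letters, chr6:24527477-24527776, minus strand: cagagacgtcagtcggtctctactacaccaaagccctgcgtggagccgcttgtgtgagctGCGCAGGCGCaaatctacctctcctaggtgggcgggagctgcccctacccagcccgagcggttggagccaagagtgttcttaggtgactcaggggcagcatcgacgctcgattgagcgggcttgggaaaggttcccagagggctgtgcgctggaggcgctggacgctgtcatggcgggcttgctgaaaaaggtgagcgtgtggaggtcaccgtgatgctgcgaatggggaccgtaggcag

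Sdhb, ETS letters, chr4:140961021-140961320, plus strand: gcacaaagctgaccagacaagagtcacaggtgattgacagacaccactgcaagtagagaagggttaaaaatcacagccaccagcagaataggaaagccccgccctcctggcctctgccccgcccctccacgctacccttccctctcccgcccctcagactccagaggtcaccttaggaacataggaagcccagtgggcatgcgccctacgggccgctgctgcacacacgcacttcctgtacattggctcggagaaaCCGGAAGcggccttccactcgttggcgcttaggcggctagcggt

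Atp5k, NRF1 then ETS letters, chr5:108434350-108434649, minus strand: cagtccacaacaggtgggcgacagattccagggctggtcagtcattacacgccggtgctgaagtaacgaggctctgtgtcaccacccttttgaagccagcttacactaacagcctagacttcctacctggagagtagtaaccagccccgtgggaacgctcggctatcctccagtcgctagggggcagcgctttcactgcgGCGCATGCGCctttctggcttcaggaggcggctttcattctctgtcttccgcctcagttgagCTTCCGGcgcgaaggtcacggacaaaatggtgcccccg

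The NRF1 letters were in 18 of the 75 member promoters (24%) and in 4.6% of 32851 promoters in all. The ETS letters were in 16 (21.3%, against 8.86%), and the YY1 letters in 9 (12%, against 1.4%). Any of them occurred in 49.3% of member promoters and 13.6% of all promoters. The member promoters were richer in G and C, with a median of 57.3% against 52.7%. The median log2 fold change in KO libraries was -0.43 for genes with NRF1 letters and -0.46 without, -0.47 and -0.46 for ETS letters, and -0.35 and -0.48 for YY1 letters. A match describes letters only and shows no binding.

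In complex I all 36 tested nuclear genes had a difference below 0, and 13 were lower at an unadjusted p under 0.05. Ndufb3 (chr1:58586397-58595964), an accessory subunit of the membrane arm, had the smallest p of any member. It was at 24.0, 28.4 and 37.9 CPM (lowest, median and highest) in the KO libraries and at 34.4, 51.9, 37.9, 44.4 and 50.4 CPM in WT replicates 1 to 5. Only KO replicate 6 reached the WT range, and the log2 fold change was -0.62 ± 0.15 (SE; 1.54-fold lower, edgeR adjusted p = 0.180). The value was -0.47 within the shallower class and -0.83 within the deeper one.

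Ndufa13, an accessory subunit also known as GRIM-19, was at 61, 67.3 and 106 CPM in the KO libraries and at 76.7, 143, 124, 97.2 and 136 CPM in WT replicates 1 to 5. The groups overlapped through WT replicate 1 and KO replicates 6 and 7, and the log2 fold change was -0.65 ± 0.18 (SE; edgeR adjusted p = 0.209). Part of its exon sequence, 30%, overlaps Tssk6 on the opposite strand, and because strand use in counting is not known their reads cannot be told apart. Ndufa10, an accessory subunit of the nucleoside kinase family, was 1.46-fold lower (log2 -0.55 ± 0.19, adjusted p = 0.248, edgeR).

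Ndufa5, whose promoter is printed above, was at 13.8, 15.1 and 36.2 CPM in KO and at 15.5, 47.8, 27.4, 30.5 and 44.0 CPM in WT replicates 1 to 5. KO replicate 6 stood apart from the other KO libraries, of which the highest was at 17.8 CPM. The log2 fold change was -0.86 ± 0.31 (SE; edgeR adjusted p = 0.25) and -1.13 without KO replicate 6.

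Complex II, the only complex also in the tricarboxylic acid cycle, had 4 tested genes with 1 at an unadjusted p under 0.05, Sdhc. Sdhc, a membrane anchor, was at 105, 136 and 203 CPM in KO and at 132, 292, 193, 178 and 268 CPM in WT replicates 1 to 5 (log2 fold change -0.61 ± 0.22, edgeR adjusted p = 0.251). Sdhb, the iron-sulphur subunit, was at 119, 129 and 345 CPM in KO and at 128, 416, 234, 173 and 396 CPM in WT replicates 1 to 5. KO replicate 6 was the highest KO library and the next was at 152 CPM, and the log2 fold change of -0.73 ± 0.35 (edgeR adjusted p = 0.363) became -1.03 without it. The flavoprotein Sdha had -0.43 ± 0.24 and the other anchor, Sdhd, -0.20 ± 0.22, and Sdhd was at 0.12 among the shallower libraries.

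In complex III, 2 of 8 genes were lower at an unadjusted p under 0.05, Uqcrb and Uqcrfs1. Uqcrb, the subunit that binds ubiquinone, was at 30.7, 54.2 and 65.4 CPM in KO and at 56.9, 102, 65.8, 65.2 and 87.4 CPM in WT replicates 1 to 5, with a log2 fold change of -0.61 ± 0.21 (edgeR adjusted p = 0.25). WT replicate 1 lay below KO replicates 1 and 6, and 43.4% of the 50-base words of Uqcrb transcripts also occur in transcripts of other genes. Uqcrfs1, the Rieske iron-sulphur protein, was at 140.0, 158 and 335 CPM in KO and at 157, 394, 242, 259.9 and 372 CPM in WT replicates 1 to 5 (log2 fold change -0.65 ± 0.27, edgeR adjusted p = 0.306). Uqcrh, the hinge protein, had -0.46 ± 0.24, the core protein Uqcrc2 -0.42 ± 0.22, and the most abundant gene Uqcrq -0.25 ± 0.22. Uqcrc1, the other core protein, was listed far lower, at 1.86 to 22.4 CPM over all libraries, although 0.0% of its 50-base words occur elsewhere.

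Complex IV had 10 of 12 tested genes below 0 and 6 at an unadjusted p under 0.05. Cox5b (chr1:36691487-36693388), a nuclear regulatory subunit, was at 60.7, 77.3 and 141 CPM in KO and at 87.9, 233, 129, 124 and 199 CPM in WT replicates 1 to 5. KO replicates other than 6 were all below the WT range, and the log2 fold change was -0.89 ± 0.26 (SE; 1.85-fold lower, edgeR adjusted p = 0.211). Cox6c, a small nuclear subunit, was at 69.0, 99.3 and 169.7 CPM in KO and at 111, 225, 129, 154 and 208 CPM in WT replicates 1 to 5 (-0.63 ± 0.23, edgeR adjusted p = 0.265). Cox6a1, the most abundant nuclear gene of the complex, had -0.37 ± 0.26 over all libraries, 0.14 among the shallower and -0.94 among the deeper.

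In complex V, 15 of 17 genes were below 0 and 5 were lower at an unadjusted p under 0.05. Atp5k, the small e subunit at the dimer interface, was at 12, 18.4 and 34.3 CPM in KO and at 24.8, 43.7, 33.0, 25.5 and 39.5 CPM in WT replicates 1 to 5. Only KO replicate 6 exceeded the lowest WT library, and the log2 fold change was -0.74 ± 0.25 (SE; 1.67-fold lower, edgeR adjusted p = 0.239). Atp5c1, the central stalk gamma subunit, was 1.61-fold lower (-0.69 ± 0.24, adjusted p = 0.248, edgeR), and Atp5h, the d subunit of the peripheral stalk, 1.62-fold lower (-0.70 ± 0.27, adjusted p = 0.279). Atp5b, the catalytic beta subunit, was at 864, 1069.5 and 2092 CPM in KO and at 1012, 2439.6, 1194, 1163 and 2308 CPM in WT replicates 1 to 5. Its high values were those of WT replicates 2 and 5 and KO replicate 6, and the log2 fold change was -0.43 ± 0.30 (edgeR adjusted p = 0.508).

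The isoform groups did not all follow their common member. The table holds 3 Cox7a genes: Cox7a2 is the form of liver and most tissues, Cox7a1 that of heart and muscle, and Cox7a2l (SCAF1) joins complexes III and IV in supercomplexes. Cox7a2 was at 53.6, 77.3 and 90.7 CPM in KO and at 82.7, 138, 93.8, 94.9 and 134 CPM in WT replicates 1 to 5 (-0.55 ± 0.18, edgeR adjusted p = 0.224). Cox7a2l was at 118, 152 and 173 CPM in KO and at 125, 139.9, 142, 135 and 147 CPM in WT replicates 1 to 5 (0.08 ± 0.12, edgeR adjusted p = 0.785). The KO libraries of Cox7a2l spanned the whole WT range.

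Cox7a1 had the largest difference of any member, but from 3 libraries. It was at 0.215, 0.657 and 3.88 CPM in KO and at 0.533, 15.1, 0.984, 0.859 and 10.3 CPM in WT replicates 1 to 5. WT replicates 2 and 5 and KO replicate 6, the same libraries that were highest for the nuclear complexes, were the only ones above 1.06 CPM. The log2 fold change was -2.34 ± 0.91 (edgeR adjusted p = 0.277), -0.19 among the shallower and -2.99 among the deeper libraries. Of the muscle genes Ckm, Myh4 and Myl1 and the brown fat gene Ucp1, none exceeded 0.0703 CPM in any library. The other 2 genes of that marker list were higher in other libraries: Acta1 of muscle reached 0.700 CPM in KO replicate 2, and Cidea, a lipid droplet gene also used as a brown fat marker, reached 21.3 CPM in WT replicate 4 and was at 1.39, 1.03 and 0.0862 CPM in WT replicates 2 and 5 and KO replicate 6. The promoter of Cox7a1 (RefSeq, GRCm38.p6) is shown because this gene stood farthest from the other subunits, and it held none of the letters searched, nor did that of Cox7a2:

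Cox7a1, no match, chr7:30183921-30184220, plus strand: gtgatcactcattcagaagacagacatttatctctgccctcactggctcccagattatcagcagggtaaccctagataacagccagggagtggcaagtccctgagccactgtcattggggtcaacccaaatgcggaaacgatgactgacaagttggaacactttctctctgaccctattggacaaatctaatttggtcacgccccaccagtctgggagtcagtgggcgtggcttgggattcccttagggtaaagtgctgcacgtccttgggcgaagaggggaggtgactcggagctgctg

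The 3 genes of the c subunit, which forms the rotor ring of complex V, encode the same mature protein behind different targeting sequences. Atp5g1 was at 39.8, 48.3 and 177 CPM in KO and at 55.3, 289, 102, 73.1 and 274 CPM in WT replicates 1 to 5 (-1.23 ± 0.49, 2.34-fold lower, edgeR adjusted p = 0.292). Its log2 fold change was -1.68 without KO replicate 6. Atp5g3 was at 234, 279 and 597 CPM in KO and at 271, 743, 378, 321 and 739 CPM in WT replicates 1 to 5 (-0.60 ± 0.32, edgeR adjusted p = 0.396).

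Atp5g2 stayed between 0.997 and 1.98 CPM in all libraries (0.07 ± 0.28, edgeR adjusted p = 0.924), and its sign turned under 5 of the alternatives tried. Atp5l, the g subunit, was at 8.83 to 15.7 CPM in all libraries (0.03 ± 0.17, adjusted p = 0.952), with 84.8% of its 50-base words also in other transcripts, against 38.3% for Atp5g2. For such genes the deposited count depends on how reads with several matches were handled, which is not given in the sources used here.

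Of the remaining pairs, Cox6a1, Cox6b1, Cox7b and Cox8a were the expressed forms. Cox6b1 had a log2 fold change of -0.55 ± 0.25 and Cox8a of -0.58 ± 0.25 (edgeR adjusted p = 0.337 and 0.312), and Cox7b of -0.51 ± 0.28 (adjusted p = 0.412). Cox7b2, Cox8b and Cox8c had 0 counts in every library, Cox6a2, the muscle form, had 83 counts in all, and Ndufa7 had 191; these 5 genes were not tested. Cox6b2, the testis form, lay between 0.0418 and 2.46 CPM (0.12 ± 0.80, edgeR adjusted p = 0.956). Ndufa4 was at 123, 148 and 256 CPM in KO and at 152, 301, 181, 188 and 267 CPM in WT replicates 1 to 5 (-0.44 ± 0.22, edgeR adjusted p = 0.376). Its paralog Ndufa4l2, a gene induced by hypoxia, was at 2.02, 4.74 and 6.89 CPM in KO and at 3.52, 2.19, 3.02, 22.2 and 4.0 CPM in WT replicates 1 to 5. WT replicate 4 alone was high, and the log2 fold change of -0.67 ± 0.56 became 0.46 without it.

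**Figure D3:**
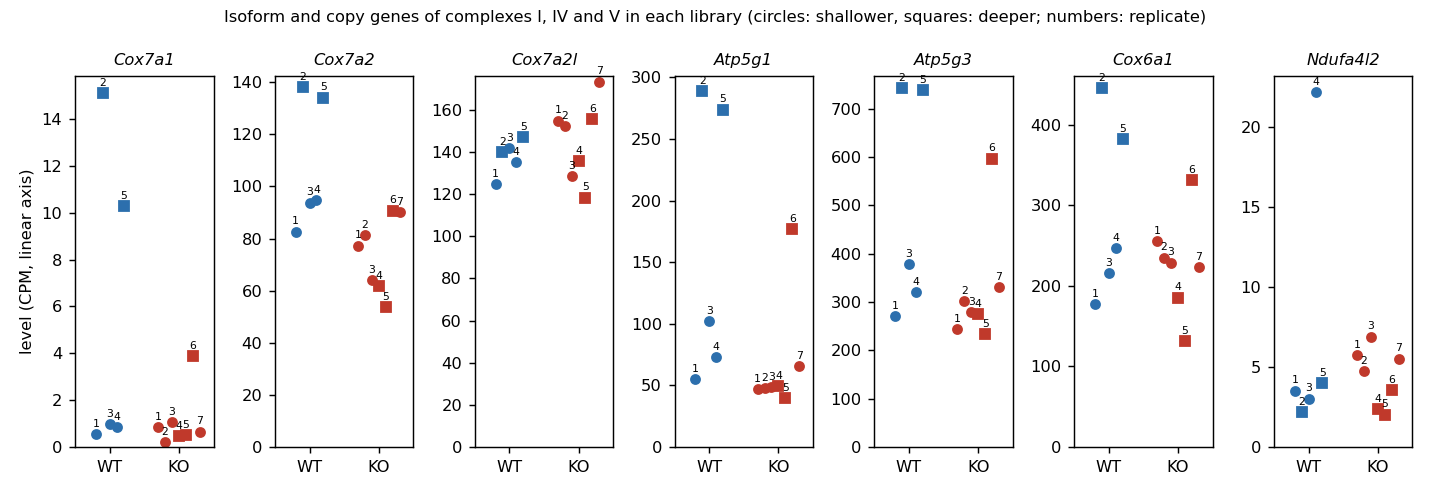
Level (vertical axis, CPM, linear scale from 0) of 7 isoform or copy genes in each library, with circles for shallower and squares for deeper libraries and the replicate number at each point. Cox7a1 is above 1.06 CPM in WT replicates 2 and 5 and KO replicate 6 only, Cox7a2l overlaps between the groups, and Ndufa4l2 is high in WT replicate 4 alone.

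Transcripts of the 13 mitochondrial protein genes took 1.25%, 2.02% and 3.31% of all counts (lowest, median and highest) in the KO libraries and 1.5%, 4.51%, 3.35%, 3.69% and 3.46% in WT replicates 1 to 5. The KO mean was 2.15% ± 0.83 (SD, n = 7) and the WT mean 3.30% ± 1.11 (SD, n = 5), and WT replicate 1 lay inside the KO range. COX1 alone made up 43.2% to 53.4% of these counts in every library. Nuclear members took 0.740% to 1.74% of all counts.

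The 13 genes are cut from long transcripts of the same molecule, yet their levels differed by orders of magnitude along it. Apart from ND6, the low ones lay in a block from COX2 to ND4L. COX2, COX3, ATP6, ND3 and ND4L share 98% to 100% of their 50-base words with other transcripts of GENCODE M21, each with a copy on chromosome 1, where a stretch of mitochondrial DNA sits in the nuclear genome. The copies, Gm28661, Gm28437, Gm10925, Gm28438 and Gm10222, lie between chr1:24612407-24612700 and chr1:24614885-24615565 on the minus strand, and over 294 to 783 aligned bases 4 of them had 0 mismatches. ND3 had 1, T3C (ND3 has T at base 3 of the gene and the copy has C, counted from the first base of the gene). The first 60 bases of ND3 and of its copy Gm28438, with the differing base in capitals, show that single difference:

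ND3, mitochondrial DNA: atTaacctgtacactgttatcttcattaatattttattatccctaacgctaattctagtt

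Gm28438, chromosome 1: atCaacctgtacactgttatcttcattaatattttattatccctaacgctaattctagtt

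ND1, ND6 and CYTB share 0.0% of their words, ND5 7.60% and ND2 8.20%, while COX1 shares 51.1% and ND4 62.2%. ATP8 lies between COX2 and ATP6, whose copies are both on chromosome 1, but no transcript of the annotation covers the stretch between those copies. Its value of 0.0% therefore does not show that it lacks a copy, and it was left out of both classes. The 5 genes over 90% shared had a median of 42.3 CPM per kilobase and the 5 under 10% shared a median of 2904 CPM per kilobase. The gap between them split the libraries by depth class and not by genotype. The mean of the less shared genes was 5.73 to 6.09 log2 units above that of the more shared genes in the 7 shallower libraries, and 7.76 to 8.13 units above it in the 5 deeper libraries, with KO and WT libraries in both ranges. What sets the classes apart in preparation or counting is not given in the labels and was not tested. Pooled differences for COX2, COX3, ATP6, ND3 and ND4L therefore mix libraries of both ranges.

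**Figure D4:**
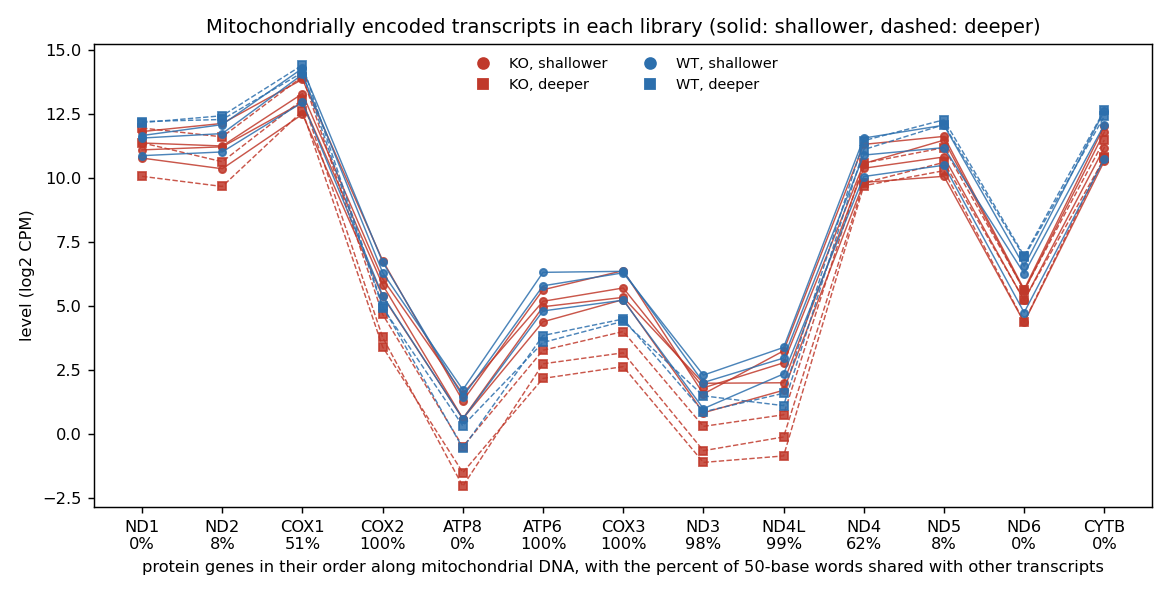
Level (vertical axis, log2 CPM) of the 13 protein genes in their order along mitochondrial DNA, 1 line per library, solid for shallower and dashed for deeper libraries, with the percent of shared 50-base words under each name. The block from COX2 to ND4L lies below its neighbours, and lower in the deeper than in the shallower libraries for most genes of it.

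Among the less shared genes, ND6 (chrMT:13552-14070), the only protein gene on the light strand, had the smallest p. It was at 20.4, 37.6 and 49.8 CPM in KO and at 26.7, 124, 93.4, 76.5 and 119.6 CPM in WT replicates 1 to 5. Every WT library but replicate 1 was above all KO libraries, and the log2 fold change was -1.23 ± 0.35 (SE; 2.35-fold lower, edgeR adjusted p = 0.209). Without strand information, reads of ND6 cannot be told from those of the opposite strand across it.

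CYTB, the cytochrome b of complex III (chrMT:14145-15288), was at 1612, 2316 and 4168 CPM in KO and at 1698, 6381, 6255, 4318 and 5398 CPM in WT replicates 1 to 5 (-0.91 ± 0.35, edgeR adjusted p = 0.278). Again WT replicate 1 alone lay within the KO range. COX1 was at 5697, 8451 and 15816 CPM in KO and at 7857, 21575, 19739, 16749 and 17644 CPM in WT replicates 1 to 5 (-0.77 ± 0.34, edgeR adjusted p = 0.320), with the same pattern. The complex I genes ND1, ND2, ND4 and ND5 had log2 fold changes of -0.45 ± 0.33, -0.82 ± 0.39, -0.69 ± 0.33 and -0.79 ± 0.36. Those of the shared genes were less certain: COX2 had -0.32 ± 0.55, COX3 -0.46 ± 0.61, ATP6 -0.74 ± 0.63, ND3 -0.61 ± 0.55 and ND4L -0.58 ± 0.67, and the short ATP8 -0.47 ± 0.66.

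Within each library, the less shared mitochondrial genes were compared with the nuclear members. They stood 3.95 ± 0.51 log2 units higher in KO (mean and SD, n = 7) and 4.33 ± 0.38 higher in WT (n = 5). The ranges overlapped, 3.18 to 4.67 against 3.71 to 4.75. The order of the libraries was not the same in the 2 genomes: for nuclear members KO replicate 6 was below WT replicates 2 and 5 alone, whereas for these mitochondrial genes it was also below WT replicates 3 and 4 and KO replicate 1.

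Because the depth classes differ in a technical measure, each comparison was repeated within them. Among the shallower libraries (4 KO, 3 WT) the median log2 fold change was -0.19, -0.23, -0.17, -0.19 and -0.14 for nuclear complexes I to V and -0.31 for the mitochondrial genes. Of 89 tested members, 73 were below 0 (50.5% of all genes tested there) and 6 were lower at an unadjusted p under 0.05 (5.93% of all genes), a share near the background. Among the deeper libraries (3 KO, 2 WT) the medians were -0.83, -0.86, -0.84, -0.94 and -0.83 for complexes I to V and -1.28 for the mitochondrial genes. There 91 of 92 were below 0 (44.8% of all genes) and 28 were lower at an unadjusted p under 0.05 (7.32% of all genes). No member was called by edgeR at an adjusted p under 0.05 in either class (0.0% and 0.0123% of all genes called lower).

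The difference between the classes was itself tested as an interaction. edgeR called 0 members and 0.0% of all genes in either direction, with a smallest adjusted p of 0.514 among the members. The interaction was below 0, meaning a more negative difference in the deeper libraries, for 89 of 90 members, against 46.5% of all genes, with a median of -0.68, and 14 members were lower at an unadjusted p under 0.05 (4.56% of all genes). The exception was Ndufa4l2 at 0.51. Each class rests on few libraries, and WT replicates 2 and 5 are the only deeper WT libraries.

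**Figure D5:**
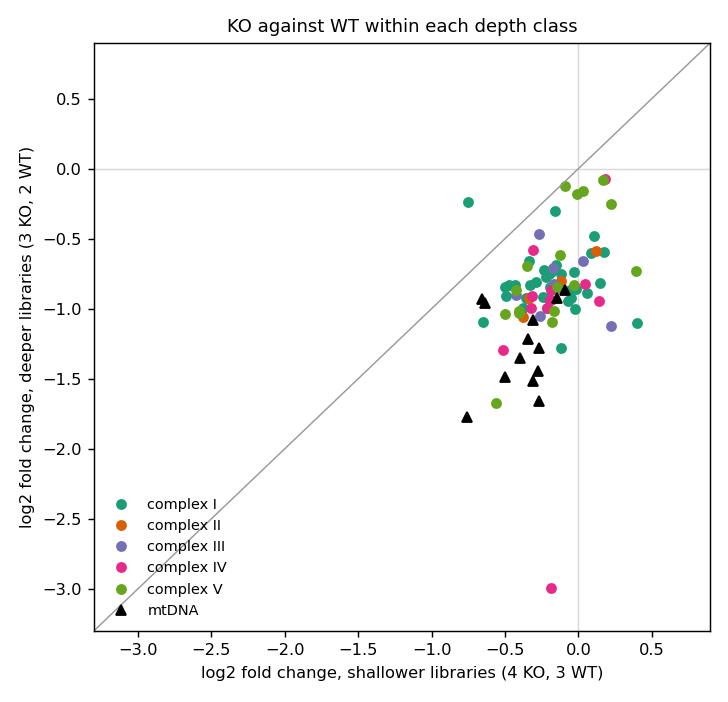
Fitted log2 fold change, KO against WT, of members tested in both depth classes, among shallower libraries (horizontal axis, 4 KO and 3 WT) and deeper libraries (vertical axis, 3 KO and 2 WT), coloured by complex, with the line of equal values. Every point but that of Ndufa4l2 lies below the line.

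Of the genes around the complexes, taken from fixed lists, none passed the test and most were below 0 over all 12 libraries. The median of every list was nearer to 0 among the shallower than among the deeper libraries. In that order it was -0.07 and -0.71 for the tricarboxylic acid cycle and 0.09 and -0.62 for electron and inner membrane carriers. It was -0.01 and -0.49 for mitochondrial ribosomal proteins, and -0.16 and -0.22 for maintenance and transcription of mitochondrial DNA. The values below are pooled. Each list's counts are to be read against the shares over all genes tested, which were 46.3% for a value below 0 and 7.44% for a lower value at an unadjusted p under 0.05. No difference between lists was tested. The 6 subunits outside the symbol rule (Cox4i1, Cox4i2, Cyc1, Ndufab1, Usmg5 and 2010107E04Rik) had 5 below 0 and a median of -0.36. Ndufab1, the acyl carrier protein of complex I, had -0.58 ± 0.22 (edgeR adjusted p = 0.265). Of 15 complex I assembly factors 14 were below 0 (median -0.28, 6 lower at an unadjusted p under 0.05), among them Ndufaf1 at -0.75 ± 0.18 (adjusted p = 0.187). Of 34 assembly factors of complexes II to V, 29 were below 0 (median -0.35, 14 lower and 1 higher at an unadjusted p under 0.05).

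Lyrm7, which guides the Rieske protein Uqcrfs1 into complex III, had the lowest p among them. It was at 0.351, 0.482 and 0.862 CPM in KO and at 1.23, 3.17, 1.97, 1.24 and 3.22 CPM in WT replicates 1 to 5, so that all KO libraries were below all WT libraries. The log2 fold change was -1.99 ± 0.38 (edgeR adjusted p = 0.170), from 469 counts in all 12 libraries. The tricarboxylic acid cycle had 11 of 13 below 0 (median -0.46, 4 lower at an unadjusted p under 0.05). Of 22 electron carriers and inner membrane carriers, 15 were below 0 and 7 above (median -0.14, 2 lower at an unadjusted p under 0.05). Cycs, cytochrome c, had the most negative value of that list, -0.93 ± 0.36 (edgeR adjusted p = 0.282).

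The lists for mitochondrial gene expression had medians nearer to 0 than the subunits. Of 77 mitochondrial ribosomal proteins 70 were below 0 with a median of -0.22 and 16 lower at an unadjusted p under 0.05. Of 15 genes for maintenance and transcription of mitochondrial DNA 12 were below 0 (median -0.22, 4 lower), and of 20 RNA processing and translation factors 19 (median -0.23, 4 lower). All KO libraries were below all WT libraries for Mtif2, Mtif3 and Fastkd2 of the latter list and Tfb2m of the former (0.58% of all genes). Mtif2 had -0.51 ± 0.11 (edgeR adjusted p = 0.174). The 4 lower genes for mitochondrial DNA were Mgme1 (-0.82 ± 0.27), Tfb2m (-0.33 ± 0.13), Tfb1m (-0.56 ± 0.24) and Polg2 (-0.50 ± 0.22). Tfam, which packs and transcribes mitochondrial DNA, was at 31.0, 33.8 and 38.5 CPM in KO and at 38.8, 36.2, 34.2, 37.2 and 33.4 CPM in WT replicates 1 to 5 (-0.08 ± 0.09, edgeR adjusted p = 0.714).

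Regulators were evenly divided, with 6 of 12 below 0, a median of 0.00 and 0 at an unadjusted p under 0.05. Ppargc1a, the coactivator PGC-1 alpha, was at 6.19, 20.6 and 43.7 CPM in KO and at 5.23, 38.8, 22.1, 4.06 and 35.4 CPM in WT replicates 1 to 5 (-0.10 ± 0.61, edgeR adjusted p = 0.954). Its highest libraries were KO replicate 6 and WT replicates 2 and 5, the same 3 that were highest for nuclear subunits. Nrf1 itself had 0.27 ± 0.13 (edgeR adjusted p = 0.341). The 2 ribosomal RNAs of mitochondrial DNA, Rnr1 and Rnr2, were at no more than 14.9 CPM in any library and had log2 fold changes of -1.47 ± 0.52 and -1.15 ± 0.50.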

How the data were processed

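RNA sequencing libraries of 7 KO and 5 WT liver tumours were analysed. The values are whole-number read counts per gene in a single table deposited by the authors, aligned with HISAT2 to mm10, per the submitters' processing notes. The counting program, its annotation, strand use and treatment of reads with several matches are steps not given in the sources used here. Of 46095 genes, 14666 passed filterByExpr (minimum count 10, minimum total 15), with 99.9% of the counts. Genotype was tested over all 12 libraries with edgeR 4.0.16 (TMM scaling, robust quasi-likelihood fit, no covariate, Benjamini-Hochberg adjustment over all genes tested, threshold 0.05) under R 4.3.3. DESeq2 1.42.0 and limma 3.58.1 (voom) were alternatives. Levels are TMM-scaled CPM, or log2 CPM with a prior count of 2. Transcript lengths, 50-base words and the positions of the chromosome 1 copies come from GENCODE M21. Positions of members come from RefSeq, as do promoters (GRCm38.p6). Scripts were tested on simulated counts.

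The rule for naming genes took Pck1, in each complex the 4 nuclear members with the smallest p and the most abundant one, and every member with a positive difference. It also took all mitochondrial protein genes, the isoform groups, the Sdh genes and up to 4 genes with the smallest p of each related list. For some related lists not all of these genes, or none, are named in the text. A gene that the rule names is not reported here. A few others (Ndufb4, Uqcrc1, Tfam, Ppargc1a and the single markers of hepatocytes and cholangiocytes) were chosen after their values were seen. The members, lists and depth classes were chosen with earlier results of these data known. The class of mitochondrial genes with under 10% shared words was added after seeing the data. Total counts of 17462102 to 46747125 limit precision mainly for genes under about 1 CPM.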

Additional observations from a re-analysis of the deposited data

Results flagged for a closer look

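In 114 groups of 5 or 7 libraries checked for a single library far from the rest of its group, 13 stood apart, where chance flags about 1 in 20 groups. KO replicate 6 was the library in 11 of them, always high. It was at 8.31 log2 CPM for the mean of complex II (the next KO library was at 7.66) and at 6.96 for the mean of complex V (next 6.36). It was also high for Ndufa5 at 5.18 log2 CPM (next 4.16), Sdhb at 8.43 (next 7.25), Uqcrfs1 at 8.39 (next 7.46), Uqcrc2 at 8.03 (next 7.38) and Cox5b at 7.14 (next 6.45). The same held for Atp5g1 at 7.47 (next 6.04), Atp5g3 at 9.22 (next 8.37), Atp5b at 11.03 (next 10.21) and Ndufa4 at 8.00 (next 7.34). These values share 1 library and are not independent of each other.

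WT replicate 1 was low for COX1 at 12.94 log2 CPM, where the next WT library was at 14.03. WT replicate 4 was high for Ndufa4l2 at 4.48 log2 CPM, where the next was at 2.02.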

How the results depend on the processing

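No paired analysis was possible because no number in the sample titles recurs between KO and WT and the labels give no pairing. Members called lower numbered 0 by edgeR and 0 or 1 leaving out single libraries, 4 by DESeq2 and 56 by limma-voom with sample weights, and 1 was called without KO replicate 6. Members lower at an unadjusted p under 0.05 numbered 31, 11 with total-count scaling, 67 with limma-voom sample weights, 13 with the Xist class as covariate, 6 among shallower libraries and 9 to 59 leaving out single libraries. Total-count scaling moved the median of all genes to 0.16 and that of the members to -0.37. Medians that moved by more than the spread between libraries were those of complex I (-0.83), complex III (-0.84) and the mitochondrial genes with under 10% shared words (-1.49) among the deeper libraries. The log2 fold change of Pck1, the targeted gene, was called by DESeq2 (-3.28, adjusted p = 0.000123) and by limma-voom with sample weights (-3.87, adjusted p = 0.0103).

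Signs turned for few named members. Among shallower libraries Sdhd was at 0.12, Uqcrq at 0.0293 and Cox6a1 at 0.14, and among deeper libraries Cox7a2l was at -0.0761, Atp5g2 at -0.0771, Atp5l at -0.25 and Cox6b2 at -1.66. With limma-voom without weights Atp5g2 was at -0.0016, the Atp5l log2 fold change was -0.0596 and that of Cox6b2 -0.50, and with weights Atp5l was at -0.19, Cox6b2 at -0.87 and Ndufa4l2 at 0.0876. Atp5g2 was at -0.0255 with the Xist class as covariate and Cox6b2 at -0.84 without the 3 KO libraries high in neutrophil markers. Leaving out single libraries, Atp5g2 ran from -0.0185 to 0.18, Atp5l from -0.0478 to 0.0962, Cox6b2 from -0.76 to 0.85, COX2 from -0.70 to 0.0040 and Ndufa4l2 from -0.90 to 0.46. The cause of these turns was not tested. Genes near or under 1 CPM, such as Atp5g2 and Cox6b2, are limited by depth.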
